A study of Mus musculus with 18 samples.

Results

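The 47 genes described here encode the machinery of mitosis: the kinases and cyclin that start it, the chromosomal passenger complex, the spindle checkpoint, the anaphase-promoting system, the centromere and kinetochore, the spindle, the cytokinesis apparatus and the condensins. They were listed by symbol for their function, at a point when earlier results of these data were known, so the list is not independent of the data. Of the 47 genes, 46 had a transcript cluster (the probes for 1 transcribed region) annotated with exactly 1 symbol, out of 22180 genes with such a cluster. Ncapg shares its only cluster with Lcorl and is given apart. Where a gene had several clusters, the brightest on average was taken.

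RNA came from the mouse line 3T3-L1, preadipocytes that become adipocytes after hormonal induction. The 6 groups were SIRT6KD cells, infected with a lentivirus carrying a short hairpin RNA against Sirt6, and WT cells, each taken before induction (0 hr) and 20 hr and 40 hr after it, with 3 arrays per group and 18 arrays in all. WT cells carried a control hairpin in the knockdown experiments of the paper, and which of its hairpins against Sirt6 was used for the arrays is not stated. In its protocol cells were taken past confluence, and IBMX, dexamethasone and insulin were then added in medium with serum. The hours, the cell line and the hairpin are taken from the paper, since the sample labels speak of mice, of an inhibitor given at the later times and of T0, T20 and T40 with no unit. The paper states that its cell culture studies had 3 or more biological replicates. Nothing in the labels says that the arrays of a group came from separate cultures, so the p values rest only on the spread between these samples.

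As background, 3T3-L1 preadipocytes stop dividing once they fill the dish. The hormone mix makes them copy their DNA and divide again, nearly in step, before fat cell genes are switched on, a phase named mitotic clonal expansion. Most mitotic genes are little expressed in resting cells and are transcribed together late in the cycle. The repressor complex DREAM and the activators B-MYB and FOXM1 act at their promoters through a short element named CHR, often beside CCAAT boxes bound by the factor NF-Y. Once transcribed, the products run in sequence: cyclin B kinase and the PLK and Aurora kinases drive entry, kinetochores join chromosomes to microtubules, the checkpoint holds back the anaphase-promoting complex until all are attached, and separase and the central spindle then split the cell.

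The deposited values are log2 signals, so that a difference of 1 is a fold of 2. The lowest correlation between arrays within a group was 0.9905, and the medians of the 18 arrays lay between 6.41 and 6.54. The genotypes were nonetheless hard to separate over all clusters, since 5 arrays resembled the opposite genotype of the same hour more closely than their own replicates (SIRT6KD replicates 1, 2 and 3 at 20 hr, SIRT6KD replicate 1 at 40 hr and WT replicate 3 at 0 hr). Sirt6 itself averaged 7.07, 6.89 and 6.91 in SIRT6KD cells at 0, 20 and 40 hr, against 7.24, 7.19 and 7.13 in WT cells. It was lower at each time, but none of the 3 differences passed the test over all clusters (adjusted p = 0.768, 0.617 and 0.479). At 20 hr the difference was -0.3 (95% interval -0.53 to -0.07, limma unadjusted p = 0.0146). The intervals at 0 hr (-0.41 to 0.06) and 40 hr (-0.45 to 0.01) included 0. At 40 hr the SIRT6KD arrays all lay below the WT arrays, the highest at 7.07 against the lowest at 7.08. A reduction of the targeted transcript was thus small on these arrays and did not pass the adjusted test. The paper followed SIRT6 protein in knockdown cells by western blot, which RNA arrays do not measure. It also measured Sirt6 RNA in 3T3-L1 cells of its knockdown experiments by real-time PCR, which was not compared with the arrays here. Olfactory and vomeronasal receptors, which preadipocytes should not express, gave a guide to background: 95% of their clusters lay below 6.55, a level exceeded by 53.5% of all clusters and by all 46 mitosis genes. Of markers of fibroblasts and preadipocytes, 7 of 7 measured lay above that level, as did 7 of 7 for adipocytes, 1 of 5 for macrophages (Cd68), 0 of 4 for endothelium and 1 of 4 for epithelium (Krt8).

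Promoters show what the genes share apart from their signal. RefSeq windows of 300 bases, from 250 before to 50 after a start site (build GRCm38.p6), were at hand for 39 of the 46 genes, 44 windows in all because Bub3, Cenpk, Ect2 and Prc1 have several, partly overlapping. Aurkb, Cdc25c, Foxm1, Incenp, Smc4, Spc24 and Tpx2 were not in the table. The NF-Y box was searched as CCAAT and the CHR as TTTGAA, each on both strands (ATTGG and TTCAAA on the opposite one). Their letters overlap in the Cdca8 window. CCAAT stood in 33 of the 44 windows (75%), against 38.2% of the windows of all protein-coding genes and 37.4% of all windows in the table. TTTGAA stood in 27 (61.4%, against 16% and 17.9%) and lay within 50 bases of the start in 24 (54.5%, against 3.9% and 4.94%). Both motifs occurred together in 25 (56.8%, against 6.38% and 6.95%). These are matches of letters in a window and were not tested for binding.

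**Figure D1:**
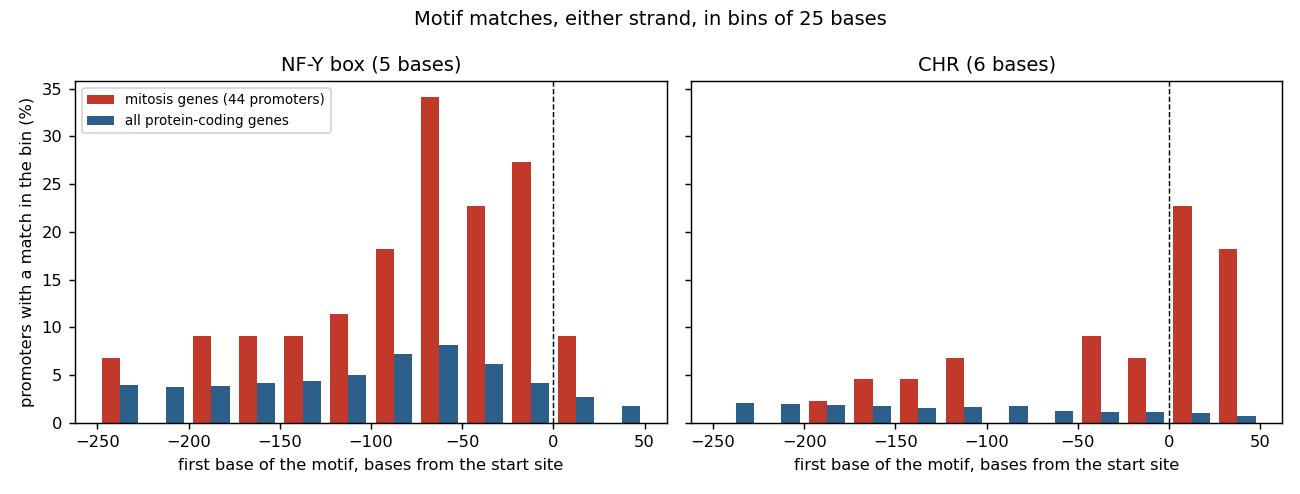
Share of promoter windows with a match in each bin of 25 bases, by distance of the motif's first base from the start site (dashed line), for the mitosis genes (red, 44 windows) and all protein-coding genes (blue). Left, the NF-Y box, most frequent among mitosis genes in the 100 bases before the start. Right, the CHR, most frequent in the bases just after it.

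The windows of 5 genes show the arrangement, with the motif letters in capitals. Ccnb2 (chr9:70421505-70421804, minus strand) has 3 CCAAT boxes, with first bases at -87, -54 and -21 counted from the start site, and a CHR match at 5, besides another at -167. Cdc20 (chr4:118437294-118437593, minus strand) has a CHR between 2 CCAAT boxes, and Plk1 (chr7:122159185-122159484, plus strand) has 1 of each. Top2a (chr11:99024140-99024439, minus strand), whose RNA ended furthest above its start, has 6 CCAAT boxes on both strands and 2 CHR matches. Ndc80 (chr17:71526808-71527107, minus strand), whose RNA fell furthest, has no CCAAT and 1 CHR on the opposite strand. Whether the number or place of the motifs goes with the course of the RNA was not tested.
Ccnb2: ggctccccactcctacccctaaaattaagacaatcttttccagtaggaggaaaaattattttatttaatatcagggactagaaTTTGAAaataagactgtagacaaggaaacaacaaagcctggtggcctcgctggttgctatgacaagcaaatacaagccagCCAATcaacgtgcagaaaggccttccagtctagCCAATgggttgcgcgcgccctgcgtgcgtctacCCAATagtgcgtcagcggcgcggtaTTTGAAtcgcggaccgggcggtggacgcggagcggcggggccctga
Cdc20: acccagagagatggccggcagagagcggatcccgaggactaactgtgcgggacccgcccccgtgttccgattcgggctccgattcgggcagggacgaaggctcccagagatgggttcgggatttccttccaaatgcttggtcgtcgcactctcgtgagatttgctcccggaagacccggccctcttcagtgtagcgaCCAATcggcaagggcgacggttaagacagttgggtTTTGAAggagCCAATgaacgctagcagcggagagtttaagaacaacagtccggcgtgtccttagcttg
Plk1: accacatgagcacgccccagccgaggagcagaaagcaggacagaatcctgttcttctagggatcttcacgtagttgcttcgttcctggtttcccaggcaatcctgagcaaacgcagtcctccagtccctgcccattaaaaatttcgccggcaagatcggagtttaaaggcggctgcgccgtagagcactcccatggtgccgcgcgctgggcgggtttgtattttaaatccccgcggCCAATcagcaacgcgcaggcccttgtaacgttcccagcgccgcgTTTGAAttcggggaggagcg
Top2a: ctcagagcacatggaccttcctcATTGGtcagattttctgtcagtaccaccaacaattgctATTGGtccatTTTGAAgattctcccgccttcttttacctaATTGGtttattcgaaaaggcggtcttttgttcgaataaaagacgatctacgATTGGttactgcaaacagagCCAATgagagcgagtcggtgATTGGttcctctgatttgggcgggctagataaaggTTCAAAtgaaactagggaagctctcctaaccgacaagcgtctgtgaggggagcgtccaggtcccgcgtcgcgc
Ndc80: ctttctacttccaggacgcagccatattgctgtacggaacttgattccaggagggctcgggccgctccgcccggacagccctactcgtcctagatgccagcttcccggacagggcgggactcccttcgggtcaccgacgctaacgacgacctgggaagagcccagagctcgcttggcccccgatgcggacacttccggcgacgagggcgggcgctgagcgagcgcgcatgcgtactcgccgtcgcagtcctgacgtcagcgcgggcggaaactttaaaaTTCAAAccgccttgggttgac

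The mitosis genes rose together by 20 hr and by 40 hr were on the whole below their starting level, in both genotypes. The median signal of the 46 genes on single arrays ran from 8.76 to 8.79 at 0 hr, 10.01 to 10.11 at 20 hr and 8.26 to 8.36 at 40 hr in SIRT6KD cells. In WT cells it ran from 8.71 to 8.86, 10.06 to 10.12 and 8.29 to 8.51 at the same times. The ranges of the 3 times did not overlap within a genotype, and those of SIRT6KD and WT overlapped at each time.

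At 20 hr, 45 of the 46 genes were higher than at 0 hr in SIRT6KD cells at an adjusted p under 0.05 and a fold above 1.5, against a background of 4% of all 23521 clusters called higher. In WT cells it was again 45 of 46, against 4.87%. The median log2 fold change was 1.17 in each genotype, a fold of 2.25, while the median of all clusters was 0.03 in SIRT6KD and 0 in WT cells. The exception in both was Smc4, a condensin subunit (0.27 ± 0.11 SE, adjusted p = 0.0893 in SIRT6KD and 0.31 ± 0.11, adjusted p = 0.0491 in WT). Its fold stayed under 1.5.

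Between 20 and 40 hr all 46 genes fell in SIRT6KD cells (background 2.46%) and all 46 in WT cells (background 2.19%). The median log2 change was -1.63 in SIRT6KD and -1.54 in WT cells, with all clusters at 0.01 in each. No mitosis gene was called in the opposite direction between these times.

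At 40 hr most of the genes lay somewhat below 0 hr. In SIRT6KD cells 13 of 46 were lower by more than 1.5-fold (background 4.8%), and 36 when no fold was required (background 12.5%). For WT cells these counts were 10 (background 3.96%) and 29 (background 10.6%). Against that direction, Top2a was higher without a fold requirement in SIRT6KD cells, the only one of 46 (background 10.7%), and Top2a and Bub3 in WT cells, 2 of 46 (background 12.2%). The median log2 change against 0 hr was -0.45 in SIRT6KD and -0.34 in WT cells. In such bulk RNA, fewer cells in mitosis and less of each RNA per cell cannot be told apart. In single SIRT6KD arrays the 7 adipocyte markers averaged 8.59 to 8.69, 8.42 to 8.5 and 9.39 to 9.5 at 0, 20 and 40 hr. In WT arrays the ranges were 8.56 to 8.74, 8.55 to 8.64 and 9.47 to 9.58. The markers were thus highest at 40 hr in both genotypes. Their relation to the fall of the mitosis genes was not tested.

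**Figure D2:**
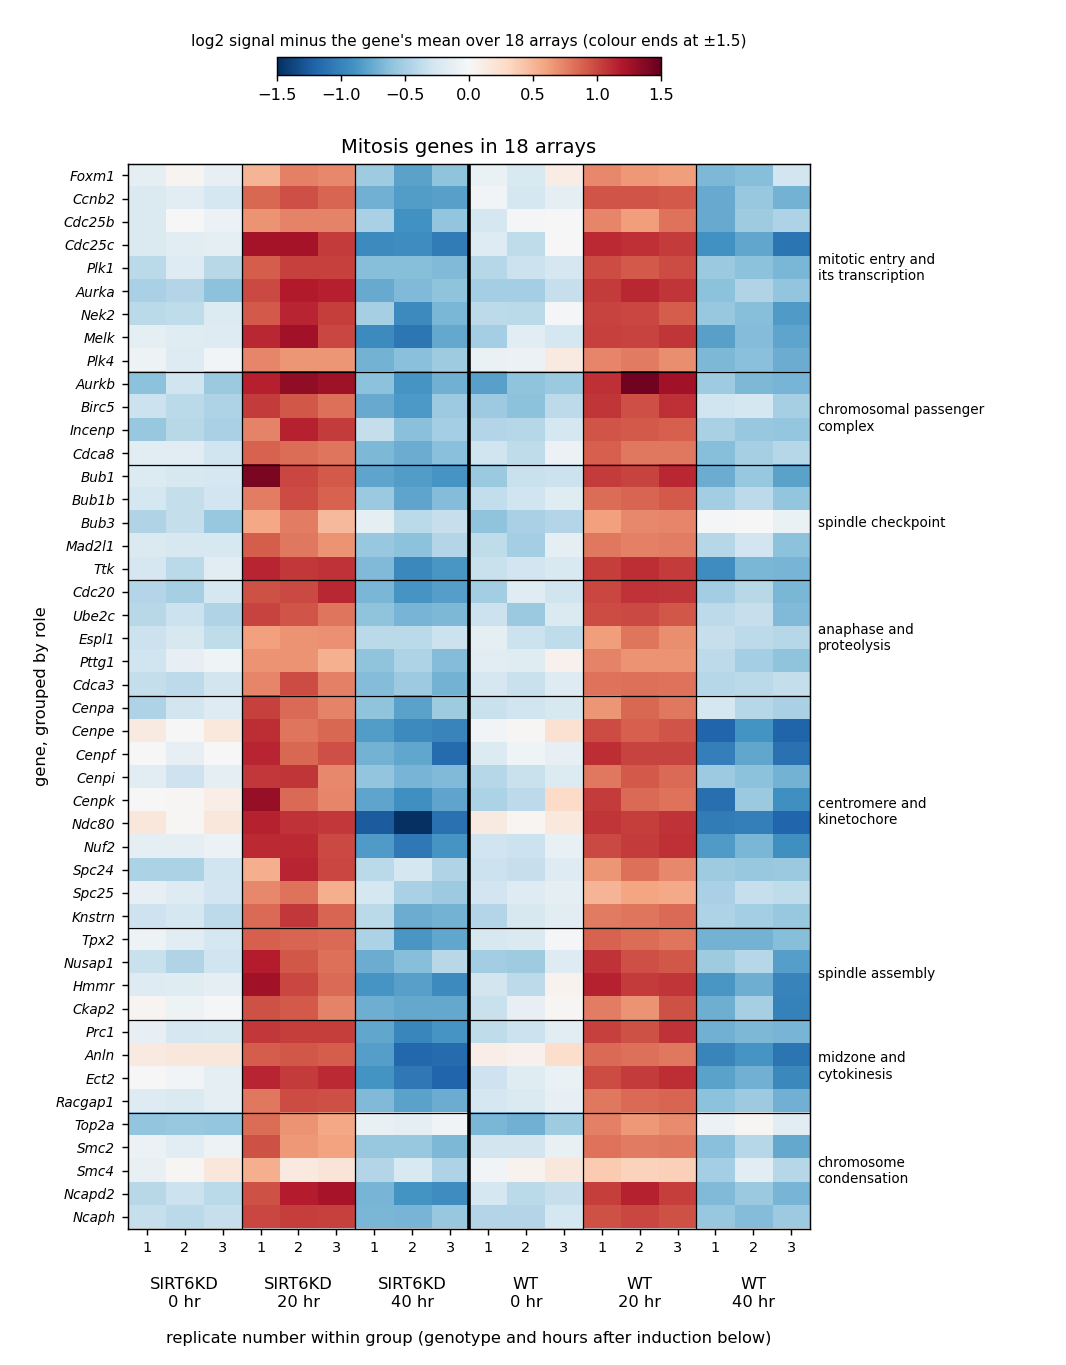
Signal of the 46 genes (rows, by role) on each of the 18 arrays (columns, SIRT6KD left and WT right, each at 0, 20 and 40 hr), as log2 signal minus the gene's mean over all arrays. All 3 arrays at 20 hr stand above those of the other times in nearly every row, and Top2a and, in WT cells, Bub3 end above their start.

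Of the genes of mitotic entry, all 9 rose by 20 hr in both genotypes, with a median of 1.3 in SIRT6KD and 1.25 in WT cells. The background for this count and for the rises of the groups below is 4% of all clusters in SIRT6KD and 4.87% in WT cells. Foxm1, the transcription factor that activates many of the others, was among the smaller rises. It measured 8.4, 8.57 and 8.41 at 0 hr, 9.05, 9.29 and 9.26 at 20 hr and 8, 7.73 and 7.93 at 40 hr in SIRT6KD cells. WT cells had 8.44, 8.31 and 8.64, then 9.25, 9.18 and 9.16, then 7.86, 7.89 and 8.25. The 3 times did not overlap in either genotype, and the rise by 20 hr was 0.74 ± 0.11 (adjusted p = 4.09e-05) in SIRT6KD and 0.73 ± 0.11 (adjusted p = 4.3e-05) in WT cells.

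Aurka, the kinase that matures centrosomes, had the largest rise of this group. Its signals were 8.59, 8.64 and 8.46 at 0 hr, 10.06, 10.27 and 10.24 at 20 hr and 8.32, 8.41 and 8.47 at 40 hr in SIRT6KD cells, and 8.56, 8.57 and 8.73, then 10.12, 10.21 and 10.15, then 8.46, 8.62 and 8.48 in WT cells. It went up 3.08-fold in SIRT6KD and 2.91-fold in WT cells (log2 1.62 and 1.54, SE 0.082 each) and at 40 hr was near its start (-0.16, adjusted p = 0.172 in SIRT6KD and -0.1, adjusted p = 0.486 in WT cells). Plk1, the kinase active from entry to cytokinesis, measured 9.19, 9.4 and 9.18, then 10.5, 10.62 and 10.62, then 8.96, 8.96 and 8.94 in SIRT6KD cells. In WT cells it had 9.17, 9.27 and 9.34, then 10.57, 10.52 and 10.58, then 9.04, 8.98 and 8.91. The arrays of the 3 times were apart in both genotypes, and the rise was 2.5-fold in SIRT6KD and 2.45-fold in WT cells (log2 1.32 and 1.29, SE 0.076).

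Ccnb2, the cyclin B2 subunit of the mitotic kinase, ended below its start. It had 9.6, 9.66 and 9.55 at 0 hr, 10.68, 10.79 and 10.69 at 20 hr and 9.1, 8.98 and 9 at 40 hr in SIRT6KD cells, and 9.78, 9.56 and 9.67, then 10.76, 10.76 and 10.74, then 9.06, 9.25 and 9.11 in WT cells. Against 0 hr its change at 40 hr was -0.58 ± 0.076 (adjusted p = 1.1e-05) in SIRT6KD and -0.53 ± 0.076 (adjusted p = 2.54e-05) in WT cells, just under the fold of 1.5. The phosphatases that remove the brake on the mitotic kinase behaved alike: at 40 hr Cdc25c was at -0.81 in SIRT6KD and -0.73 in WT cells, and Cdc25b at -0.56 in SIRT6KD and -0.48 in WT cells. Cdc25c had the deepest fall of the group between 20 and 40 hr, -2.16 in SIRT6KD and -2.01 in WT cells. At 40 hr against 0 hr Melk, a kinase of dividing cells, stood at -0.76 in SIRT6KD and -0.43 in WT cells, and Plk4, which starts centriole duplication, at -0.52 in SIRT6KD and -0.67 in WT cells. Each passed the fold of 1.5 in 1 genotype, but the difference between genotypes did not pass its test (adjusted p = 0.471 for Melk and 0.681 for Plk4). Nek2, which separates centrosomes, rose by 1.37 in SIRT6KD and 1.25 in WT cells.

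The chromosomal passenger complex corrects wrong attachments at centromeres and moves to the spindle midzone in anaphase. Its 4 subunits had the highest median rise of the 8 groups, 1.4 in SIRT6KD and 1.43 in WT cells. None was lower at 40 hr than at 0 hr by 1.5-fold. Of all clusters, 4.8% in SIRT6KD and 3.96% in WT cells were, so 0 of 4 does not set the complex apart. Aurkb, its kinase, had the largest rise of all 46 genes in both genotypes. It measured 8.14, 8.46 and 8.2 at 0 hr, 9.93, 10.09 and 10.03 at 20 hr and 8.14, 7.87 and 8.04 at 40 hr in SIRT6KD cells. WT cells had 7.94, 8.15 and 8.2, then 9.85, 10.21 and 10.02, then 8.23, 8.09 and 8.06. The 20 hr arrays stood far above the rest in each genotype, and the rise was 3.36-fold in SIRT6KD (log2 1.75 ± 0.11, adjusted p = 4.28e-10) and 3.8-fold in WT cells (1.93 ± 0.11, adjusted p = 1.2e-10). At 40 hr it was at -0.25 (adjusted p = 0.106) in SIRT6KD and 0.03 (adjusted p = 0.907) in WT cells.

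Birc5, the survivin subunit, had 9.16, 9.07 and 9.02 at 0 hr, 10.53, 10.41 and 10.31 at 20 hr and 8.72, 8.62 and 8.94 at 40 hr in SIRT6KD cells. In WT cells its signals were 8.94, 8.87 and 9.09, then 10.55, 10.45 and 10.58, then 9.18, 9.21 and 8.98. At 40 hr all SIRT6KD arrays thus lay below all WT arrays. The rise by 20 hr was 1.34 in SIRT6KD and 1.56 in WT cells. The scaffold Incenp rose by 1.47 in SIRT6KD and 1.29 in WT cells, and Cdca8, borealin, by 1.05 in SIRT6KD and 1.08 in WT cells.

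The spindle checkpoint genes all rose by 20 hr, 5 of 5 in both genotypes, and their medians of 1.18 in SIRT6KD and 1.2 in WT cells were close to that of the whole set. Bub1, a kinase that recruits other checkpoint proteins to kinetochores, had 8.87, 8.84 and 8.83, then 10.49, 10.08 and 10, then 8.29, 8.24 and 8.19 at 0, 20 and 40 hr in SIRT6KD cells. WT cells measured 8.52, 8.75 and 8.76, then 10.13, 10.09 and 10.21, then 8.33, 8.51 and 8.28. The 3 times stood apart in SIRT6KD cells, while in WT cells the highest array at 40 hr almost met the lowest at 0 hr. Ttk, the MPS1 kinase at the head of the checkpoint, rose by 1.37 in SIRT6KD and 1.35 in WT cells. Bub1b (BUBR1) rose by 1.18 in SIRT6KD and 1.16 in WT cells and Mad2l1 (MAD2), which inhibits CDC20, by 1.03 in SIRT6KD and 1.12 in WT cells.

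Bub3, the partner of BUB1 and BUBR1, ended above its start in WT cells. It measured 9.77, 9.86 and 9.65 at 0 hr, 10.8, 10.99 and 10.71 at 20 hr and 10.08, 9.82 and 9.87 at 40 hr in SIRT6KD cells, and 9.61, 9.73 and 9.78, then 10.83, 10.94 and 10.95, then 10.2, 10.23 and 10.12 in WT cells. In WT cells all 40 hr arrays were above all 0 hr arrays, and the difference was 0.48 ± 0.09 (adjusted p = 0.000509). In SIRT6KD cells the arrays of these times overlapped, and the difference was 0.16 ± 0.09 (adjusted p = 0.22). The gap between the genotypes did not pass its own test (-0.31 ± 0.13, adjusted p = 0.464). Bub3 also had the smallest fall of all 46 genes between 20 and 40 hr in WT cells, -0.72.

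The genes of anaphase and proteolysis rose in 5 of 5 cases in both genotypes. Cdc20, the activator of the anaphase-promoting complex that the checkpoint holds back, had 8.23, 8.18 and 8.41, then 9.63, 9.66 and 9.8, then 7.99, 7.79 and 7.85 in SIRT6KD cells at 0, 20 and 40 hr. WT cells had 8.15, 8.49 and 8.37, then 9.67, 9.76 and 9.74, then 8.15, 8.26 and 7.99. The 0 and 40 hr arrays were apart in SIRT6KD and overlapped in WT cells, with changes of -0.39 ± 0.098 (adjusted p = 0.00542) in SIRT6KD and -0.2 ± 0.098 (adjusted p = 0.17) in WT cells. The rise by 20 hr was 2.69-fold in SIRT6KD and 2.61-fold in WT cells. Ube2c, the ubiquitin-conjugating enzyme of that complex, rose by 1.32 in SIRT6KD and 1.33 in WT cells and Pttg1, securin, by 0.78 in SIRT6KD and 0.8 in WT cells. Espl1, separase, which securin inhibits, rose by 0.97 in SIRT6KD and 1 in WT cells, and Cdca3, a trigger of mitotic entry that the complex degrades, by 1.16 in SIRT6KD and 1.08 in WT cells. No gene of the group was lower at 40 hr than at 0 hr by 1.5-fold in either genotype. Of all clusters, 4.8% in SIRT6KD and 3.96% in WT cells were, so 0 of 5 does not set the group apart.

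**Figure D3:**
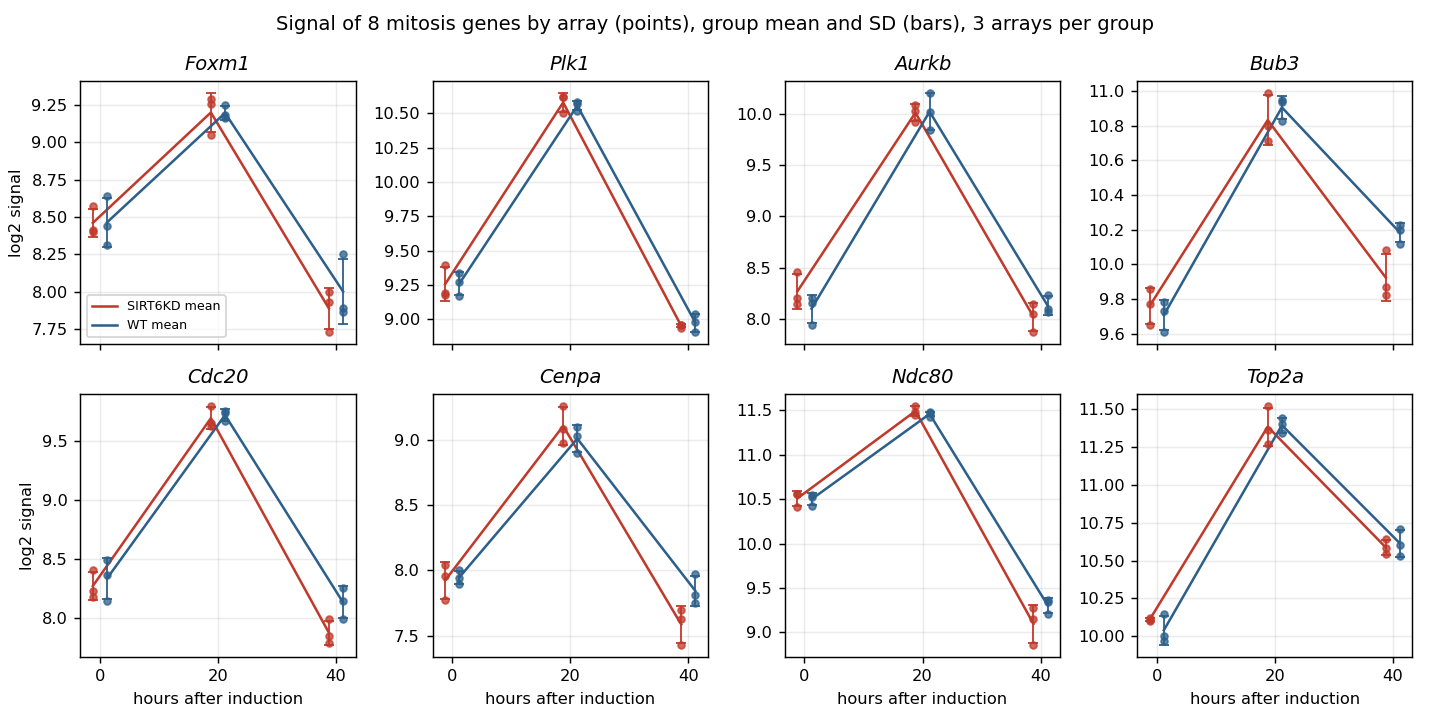
Log2 signal of 8 genes against hours after induction, with 1 point per array and the mean and SD of 3 arrays, in SIRT6KD (red) and WT cells (blue, shifted to the right). All 8 peak at 20 hr. Ndc80 ends far below its start and Top2a above it. At 40 hr the SIRT6KD points of Bub3 and Cenpa lie below the WT points, differences that did not pass the test (adjusted p = 0.288 and 0.342).

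The centromere and kinetochore genes had the widest spread of end points, between -1.42 and 0.05 at 40 hr against 0 hr in SIRT6KD cells and between -1.19 and -0.1 in WT cells. All 10 rose by 20 hr in both genotypes, with medians of 1.095 in SIRT6KD and 1.077 in WT cells. At 40 hr 5 of 10 were below 0 hr by more than 1.5-fold in SIRT6KD (background 4.8%) and 4 of 10 in WT cells (background 3.96%). Ndc80, the microtubule-binding subunit of the outer kinetochore, had the deepest fall of all 46 genes in both. Its signals were 10.56, 10.41 and 10.56 at 0 hr, 11.55, 11.48 and 11.45 at 20 hr and 9.15, 8.86 and 9.28 at 40 hr in SIRT6KD cells. In WT cells they were 10.53, 10.42 and 10.55, then 11.47, 11.43 and 11.48, then 9.34, 9.37 and 9.21. Every 40 hr array was more than 1 log2 unit below every 0 hr array. Against 20 hr the fall was 5.27-fold in SIRT6KD (log2 -2.4 ± 0.092, adjusted p = 7.05e-12) and 4.45-fold in WT cells (-2.15 ± 0.092, adjusted p = 2.78e-11), and against 0 hr it was -1.42 in SIRT6KD and -1.19 in WT cells.

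Ndc80 works in a complex of 4 subunits, whose changes at 40 hr against 0 hr were not tested against each other. Nuf2, the partner of Ndc80 in the head, was at -0.82 (adjusted p = 5.23e-07) in SIRT6KD and -0.57 (adjusted p = 4.37e-05) in WT cells at 40 hr against 0 hr. Spc24 was at 0.05 (adjusted p = 0.811) in SIRT6KD and -0.26 (adjusted p = 0.116) in WT cells, and Spc25 at -0.23 (adjusted p = 0.0695) in SIRT6KD and -0.19 (adjusted p = 0.144) in WT cells. The head subunits passed the test in both genotypes, and the foot subunits, which join the kinetochore, did not, although in WT cells all 40 hr arrays of Spc24 and Spc25 lay below their 0 hr arrays. Spc24 and Spc25 were nearer to the receptor level than the head subunits. At 0 hr Spc24 had 6.98, 6.99 and 7.16 in SIRT6KD and 7.14, 7.11 and 7.26 in WT cells. Spc25 had 7.64, 7.57 and 7.47 in SIRT6KD and 7.47, 7.57 and 7.61 in WT cells. Whether signal level affected their changes at 40 hr was not tested.

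Cenpe, the kinesin that carries chromosomes to the spindle equator, measured 10.02, 9.89 and 10.04, then 10.99, 10.69 and 10.74, then 9.05, 8.93 and 8.89 at the 3 times in SIRT6KD cells. WT cells had 9.84, 9.9 and 10.11, then 10.86, 10.78 and 10.83, then 8.69, 8.99 and 8.68. Its 40 hr arrays were far below those of 0 hr (-1.03 ± 0.1, adjusted p = 2.07e-07 in SIRT6KD and -1.16 ± 0.1, adjusted p = 4.07e-08 in WT cells). Cenpf, a large farnesylated kinetochore protein, stood at -0.84 in both genotypes, and Cenpk, of the inner kinetochore, at -0.86 in SIRT6KD and -0.68 in WT cells. Cenpa, the histone H3 variant that marks centromeres, had 7.77, 7.96 and 8.04, then 9.26, 9.08 and 8.98, then 7.63, 7.43 and 7.7 in SIRT6KD cells. WT cells had 7.9, 7.94 and 8, then 8.9, 9.1 and 9.03, then 7.97, 7.81 and 7.75. Its 20 hr arrays stood well above the rest, and those of 40 hr were below 0 hr in SIRT6KD cells (-0.34, adjusted p = 0.0166) and overlapped with 0 hr in WT cells (-0.1, adjusted p = 0.552). Cenpi, another inner kinetochore protein, and Knstrn, a kinetochore and spindle protein, rose by 1.16 and 1.25 in SIRT6KD and by 1.17 and 1.09 in WT cells.

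Of the spindle assembly genes, 4 of 4 rose in both genotypes. Tpx2, which activates Aurora A on the spindle, had 9.52, 9.43 and 9.33, then 10.49, 10.47 and 10.44, then 9.12, 8.72 and 8.82 in SIRT6KD cells, and 9.35, 9.38 and 9.58, then 10.48, 10.43 and 10.4, then 8.89, 8.89 and 8.95 in WT cells. The 3 times were apart in each, with a rise of 1.04 in SIRT6KD and 1 in WT cells. Hmmr and Ckap2, which bind spindle microtubules and poles, were below 0 hr by more than 1.5-fold at 40 hr, Hmmr at -0.71 in SIRT6KD and -0.67 in WT cells and Ckap2 at -0.73 in SIRT6KD and -0.6 in WT cells. Nusap1, which bundles microtubules near chromosomes, was not (-0.24 in SIRT6KD and -0.18 in WT cells).

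The midzone and cytokinesis genes rose in 4 of 4 cases. At 40 hr all 4 were below 0 hr at an adjusted p under 0.05 with no fold required (background 12.5% in SIRT6KD and 10.6% in WT cells). By that rule 36 of the 46 genes were lower in SIRT6KD and 29 in WT cells, so the trait is not particular to this group. Prc1, which crosslinks the microtubules of the midzone, had 9.8, 9.67 and 9.69, then 10.99, 10.96 and 10.96, then 9.15, 8.95 and 9.04 in SIRT6KD cells. WT cells measured 9.54, 9.6 and 9.77, then 10.95, 10.88 and 11.01, then 9.2, 9.25 and 9.23. Its times were apart, and the rise was 1.25 ± 0.076 in SIRT6KD and 1.31 ± 0.076 in WT cells. Anln, anillin, the scaffold of the contractile ring, had one of the small rises (0.76 in SIRT6KD and 0.68 in WT cells) and one of the large falls below 0 hr (-1.2 in SIRT6KD and -1.14 in WT cells). Ect2 and Racgap1, which activate RhoA at the division plane, were at -0.99 and -0.56 in SIRT6KD and at -0.64 and -0.43 in WT cells.

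Of the genes of chromosome condensation, 4 of 5 rose by 20 hr in both genotypes. Top2a, the topoisomerase that untangles sister chromatids, measured 10.1, 10.12 and 10.11 at 0 hr, 11.52, 11.36 and 11.27 at 20 hr and 10.58, 10.54 and 10.64 at 40 hr in SIRT6KD cells. In WT cells it had 10, 9.97 and 10.15, then 11.44, 11.34 and 11.4, then 10.6, 10.71 and 10.53. It was the gene furthest above 0 hr at 40 hr in both genotypes, 1.39-fold in SIRT6KD (log2 0.48 ± 0.079, adjusted p = 0.000133) and 1.49-fold in WT cells (0.57 ± 0.079, adjusted p = 1.73e-05), and all its 40 hr arrays were above all its 0 hr arrays.

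The condensin ATPases are SMC2 and SMC4. Smc2 had 9.77, 9.69 and 9.78, then 10.81, 10.5 and 10.46, then 9.29, 9.28 and 9.18 in SIRT6KD cells, and 9.58, 9.58 and 9.74, then 10.67, 10.63 and 10.64, then 9.23, 9.43 and 9.09 in WT cells, a rise of 0.84 in SIRT6KD and 1.01 in WT cells. Its partner Smc4 had 10.18, 10.31 and 10.46, then 10.84, 10.44 and 10.49, then 9.85, 10.06 and 9.83 in SIRT6KD cells, and 10.25, 10.34 and 10.46, then 10.69, 10.64 and 10.65, then 9.78, 10.12 and 9.87 in WT cells. The 20 hr arrays of Smc4 overlapped with those of 0 hr in SIRT6KD but not in WT cells. At 40 hr against 0 hr Smc2 stood at -0.5 in SIRT6KD and -0.38 in WT cells, close to Smc4 at -0.41 in SIRT6KD and -0.43 in WT cells. The condensin I subunits Ncapd2 and Ncaph rose by 1.5 and 1.38 in SIRT6KD and by 1.41 and 1.35 in WT cells. The cluster that Ncapg shares with Lcorl measured 9.56, 9.5 and 9.51, then 10.72, 10.6 and 10.49, then 9.15, 9.01 and 8.81 in SIRT6KD cells, and 9.22, 9.37 and 9.64, then 10.57, 10.57 and 10.51, then 8.97, 9.07 and 9 in WT cells. It followed the course of Smc2, but which of the 2 genes gave the signal cannot be told.

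**Figure D4:**
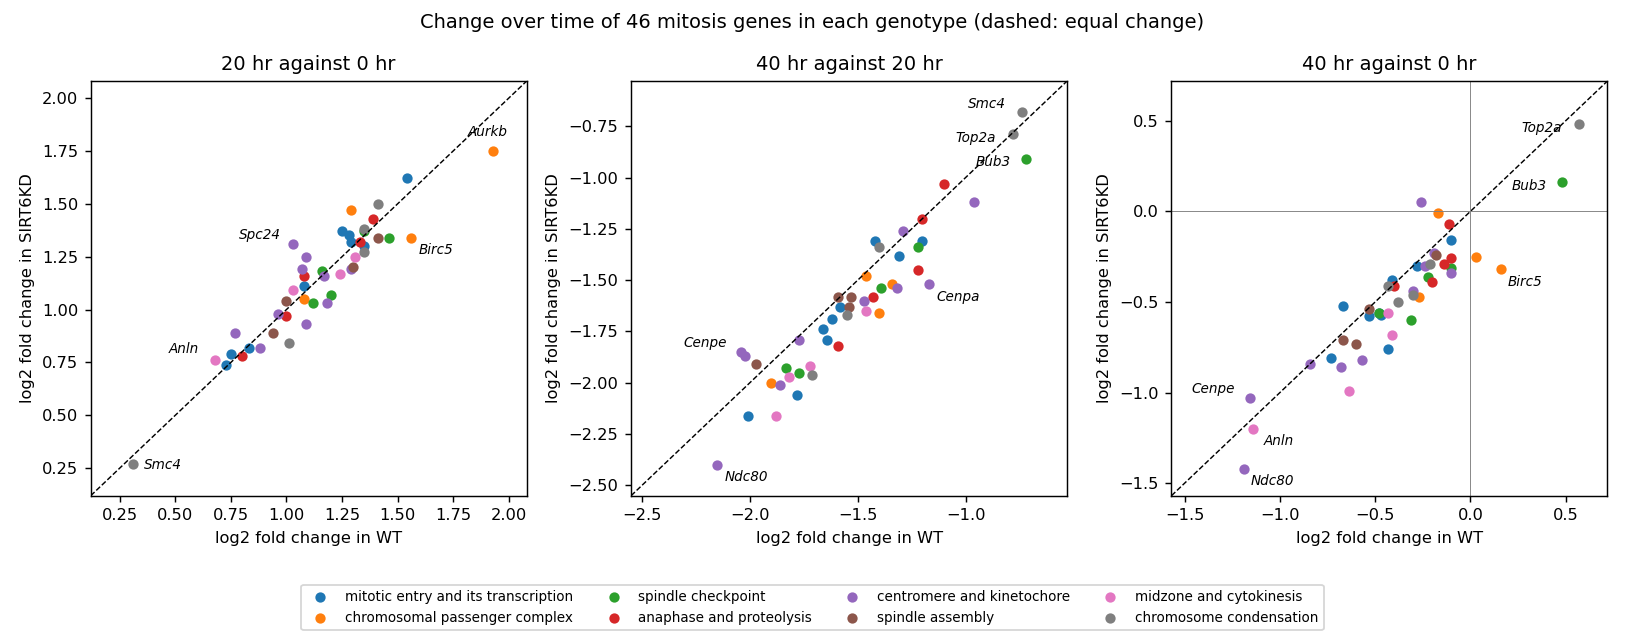
Log2 fold change of the 46 genes in SIRT6KD (vertical axis) against WT cells (horizontal axis) for 20 hr against 0 hr, 40 hr against 20 hr and 40 hr against 0 hr, coloured by role. Points lie near the line of equal change, and in the later 2 panels more of them lie below it than above.

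The size of the change was shared by the genotypes gene by gene. Over the 46 genes, Pearson's r between the SIRT6KD and WT changes was 0.93 for 20 hr against 0 hr, 0.91 for 40 hr against 0 hr and 0.943 for 40 hr against 20 hr (Spearman's rho 0.897, 0.907 and 0.936). These correlations run across genes of the same arrays and are given as a description. The largest gaps were 0.28 for Spc24, 0.48 for Birc5 and 0.35 for Cenpa.

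The question of the knockdown is whether SIRT6KD cells ran this course differently. Between SIRT6KD and WT cells, 0 of 46 genes passed an adjusted p of 0.05 by limma at 0, 20 or 40 hr. The backgrounds were 0%, 0.0213% and 0.0935%. An unmoderated test called 0 of 46 at each time, and 0, 7 and 54 of all 23521 clusters at 0, 20 and 40 hr. With so few clusters called, a count of 0 does not set the mitosis genes apart. The difference of the SIRT6KD effect between times was called for 0 of 46 genes in each of its 3 forms, 20 against 0 hr (background 0%), 40 against 0 hr (background 0%) and 40 against 20 hr (background 0%). At an unadjusted p under 0.05 there were 0 genes at 0 hr (background 6.91%), 0 at 20 hr (background 6.65%) and 9 at 40 hr (background 11%). For the differences the unadjusted counts were 0 (background 5.02%), 5 (background 9.37%) and 3 (background 4.44%). The 95% intervals of the 46 estimates ran between -0.37 and 0.6 at 0 hr, between -0.31 and 0.43 at 20 hr and between -0.56 and 0.42 at 40 hr. Each interval is for a single gene and is not adjusted for the number of genes, so together they are no bound on all 46 differences.

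At 0 hr the smallest p among the 46 belonged to Aurkb (0.17, 95% interval -0.06 to 0.4), Bub1 (0.16, -0.06 to 0.39) and Ect2 (0.13, -0.05 to 0.32), each higher in SIRT6KD cells with an adjusted p of 0.775, 0.775 and 0.782. Of all 46 genes, 1 (Bub1) had all SIRT6KD arrays above all WT arrays (background 5.6%) and 0 had them below (background 6.74%). At 20 hr the smallest p belonged to Spc25 (0.13, -0.06 to 0.31), Spc24 (0.15, -0.09 to 0.39) and Knstrn (0.12, -0.08 to 0.32), with an adjusted p of 0.869, 0.882 and 0.891. There 3 genes (Knstrn, Anln and Ncaph) had all SIRT6KD arrays above (background 5.42%) and 0 below (background 6.24%). No gene passed the test at either time.

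At 40 hr, 39 of the 46 estimates were below 0 (84.8%), with a median of -0.08 and a range of -0.36 to 0.18. Of all clusters 51.6% were below 0, and of those above the receptor level 64.1%, with a median of -0.04. The count depended on the choice of scaling: after cyclic loess it was 24 of 46 with a median of -0.02. Median centring gave a median of -0.09. With single arrays left out the count was 31 to 39, and without SIRT6KD replicate 1 the median was -0.14. At 0 and 20 hr, 20 and 18 of 46 were below 0 (43.5% and 39.1%). The count at 0 hr was 9 without WT replicate 3 and 11 after median centring, and that at 20 hr was 11 after cyclic loess. Of the 46 genes, 6 had all SIRT6KD arrays below all WT arrays at 40 hr (background 9.8%), namely Birc5, Bub3, Cdca3, Cenpa, Prc1 and Ncapd2, and 1 (Spc24) had them above (background 6.13%). The 6 genes lying below are a share close to the background.

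Birc5 had the lowest p, at -0.36 (95% interval -0.56 to -0.16, unadjusted p = 0.00124, adjusted p = 0.143), with 8.72, 8.62 and 8.94 in SIRT6KD against 9.18, 9.21 and 8.98 in WT arrays. The highest SIRT6KD array and the lowest WT array were 0.04 apart. Cdca3 followed, with 7.76, 7.86 and 7.7 in SIRT6KD against 7.98, 8 and 8.05 in WT arrays (-0.24, interval -0.4 to -0.08, adjusted p = 0.246). Bub3 came next, with 10.08, 9.82 and 9.87 in SIRT6KD against 10.2, 10.23 and 10.12 in WT arrays (-0.26, interval -0.45 to -0.07, adjusted p = 0.288). Each of these 3 had the SIRT6KD arrays below, for which the exact permutation p, two-sided, was 0.1, the smallest that 3 arrays against 3 allow. Across the alternatives the adjusted p of Birc5 lay between 0.0559 and 0.447. Cenpa and Cdc20 stood at -0.26 and -0.25 (adjusted p = 0.342 each). Cenpe and Spc24, at 0.17 and 0.18, were the highest on the other side.

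**Figure D5:**
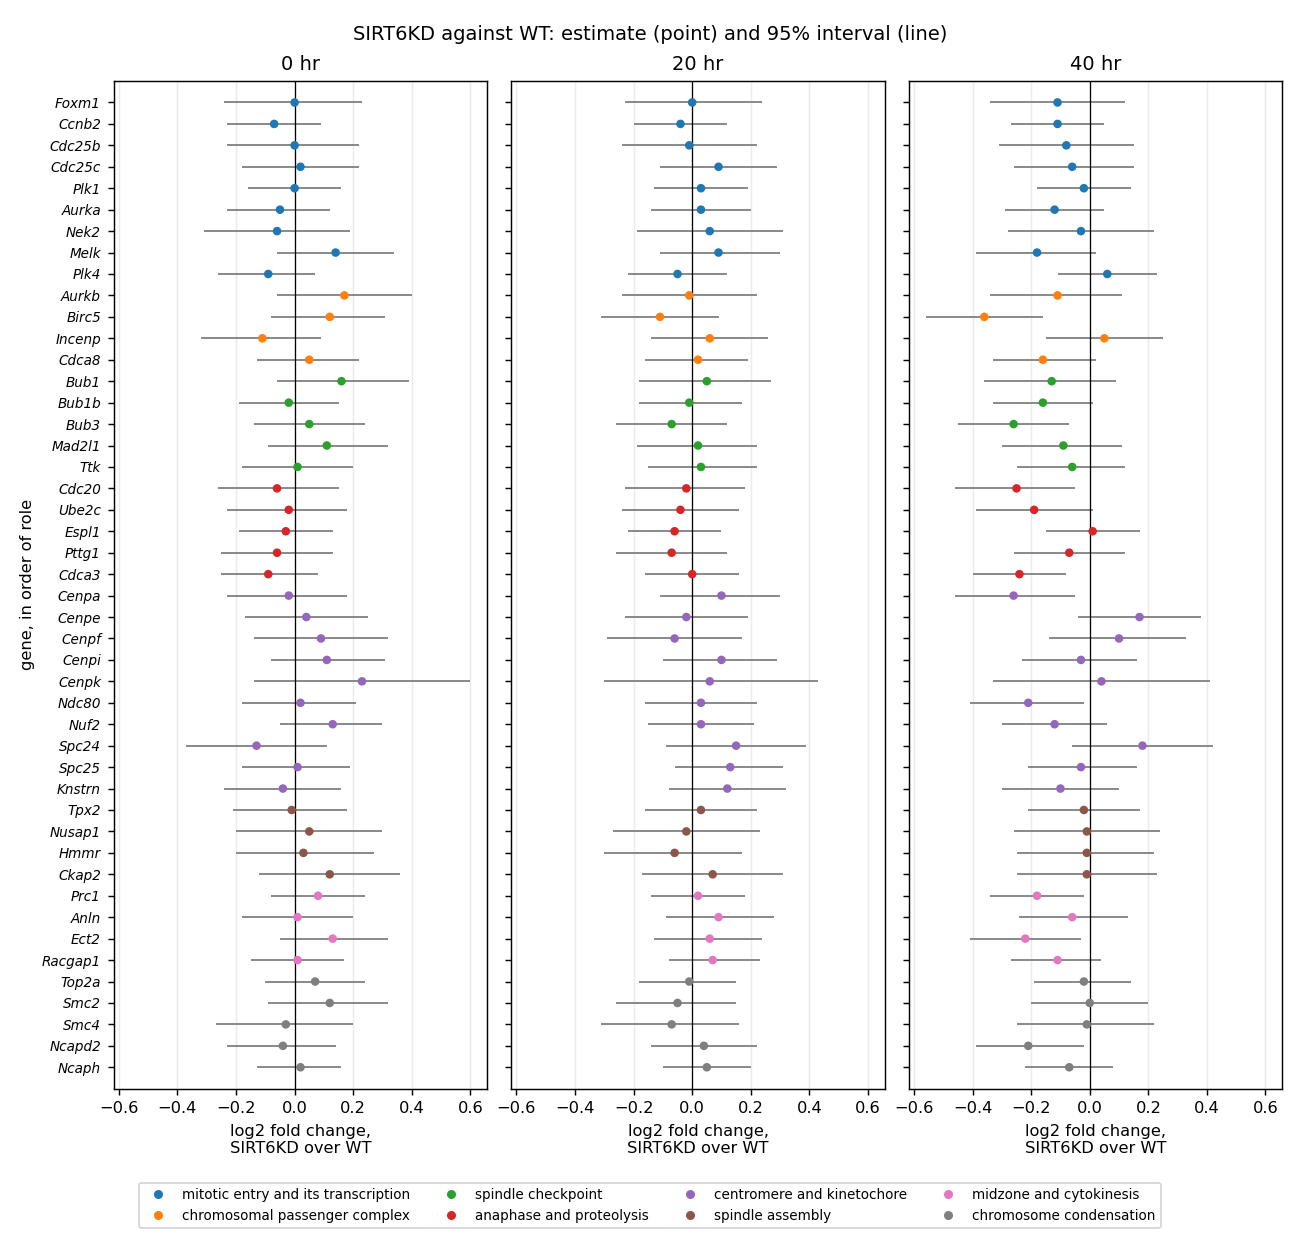
Log2 fold change of SIRT6KD over WT for each of the 46 genes at 0, 20 and 40 hr (points, coloured by role) with its 95% interval (lines). Estimates straddle 0 at 0 and 20 hr, and at 40 hr 39 of 46 lie left of 0, with Birc5 furthest at -0.36.

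The change of the SIRT6KD effect over time had its smallest p for Birc5 from 0 to 40 hr (-0.48 ± 0.13, adjusted p = 0.391), then Ect2 (-0.35 ± 0.13, adjusted p = 0.428) and Bub3 (-0.31 ± 0.13, adjusted p = 0.464). For 20 to 40 hr it was Cenpa (-0.35 ± 0.14), Ect2 (-0.28 ± 0.13) and Cdca3 (-0.24 ± 0.11), all with an adjusted p of 0.998. For 0 to 20 hr Spc24 (0.28 ± 0.16), Birc5 (-0.22 ± 0.13) and Incenp (0.17 ± 0.14) led, with an adjusted p of 0.936, 0.936 and 0.944. None of these passed the test over all clusters.

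Another 71 mitosis genes, listed by function, of which 64 were measured, gave the same outline. By 20 hr 42 of 64 rose in SIRT6KD (4% of all clusters) and 43 of 64 in WT cells (4.87% of all clusters). Between 20 and 40 hr 49 fell in SIRT6KD (2.46% of all clusters) and 46 in WT cells (2.19% of all clusters). The median change was 0.93 in SIRT6KD and 1.01 in WT cells for the first step and -1.33 in SIRT6KD and -1.25 in WT cells for the second. Ska3, of the complex that tethers kinetochores to microtubules, rose most, by 1.65 in SIRT6KD and 1.67 in WT cells. It was followed by Haspin, a histone H3 kinase, in SIRT6KD cells (1.53) and by Zwilch, a checkpoint protein of the RZZ complex, in WT cells (1.58). Cep55, which directs the final cut of cytokinesis, fell most in SIRT6KD cells (-2.1) and with Ska3 in WT cells (-1.97 each), and Aspm, a spindle pole protein, fell by 2.08 on the log2 scale in SIRT6KD cells.

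At 40 hr against 0 hr, 14 of the 64 were lower in SIRT6KD (4.8% of all clusters) and 5 in WT cells (3.96% of all clusters) by more than 1.5-fold. The test of the difference between the genotypes in this change called 0 of 64 (0% of all clusters). Aspm (-1.08) and Ska2 (-1.05) led in SIRT6KD cells, and Mki67, the proliferation marker Ki-67 (-0.96), and Ska2 (-0.9) in WT cells. Cdk1, the kinase of cyclin B, had 8.72, 8.56 and 8.69, then 9.78, 9.93 and 10.08, then 8.37, 8.17 and 8.42 in SIRT6KD cells. In WT cells it had 8.57, 8.81 and 8.9, then 9.98, 10.04 and 9.79, then 8.69, 8.6 and 8.32, so that its rise was 1.27 in SIRT6KD and 1.18 in WT cells. Ccnb1 was not analysed here because no cluster carries its symbol alone. Between SIRT6KD and WT cells 0 of the 64 passed the test at 0, 20 or 40 hr (0%, 0.0213% and 0.0935% of all clusters), which does not set them apart. Against a median of -0.04 for the clusters above the receptor level, the 64 genes had a median of -0.1 at 40 hr. Of their 67 promoter windows, 59.7% held CCAAT, 40.3% TTTGAA and 25.4% both.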

How the data were processed

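Total RNA of 18 samples was hybridised to Mouse Gene ST arrays. The authors' deposited table holds log2 signals per transcript cluster after RMA, named in the submitters' processing notes (software and version are not given in the sources used here). RMA brings all arrays to one distribution, so a change of total RNA per cell is not seen. Of 41345 clusters, the 23521 with 1 symbol were tested. The mitosis genes and the further lists were chosen with earlier results of these data known.

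Group means were fitted with limma 3.58.1 (R 4.3.3) over all 6 groups, with 12 residual degrees of freedom, and 12 comparisons were tested with Benjamini-Hochberg adjustment over all clusters. This step was tested on simulated data. Calls over time needed an adjusted p under 0.05 and a fold above 1.5, and calls between genotypes an adjusted p under 0.05. Errors after ± are standard errors of the fit with 3 arrays per group, whose number limits the precision. The study's methods name an analysis of variance, which was not run as such. The unmoderated alternative was a t test per comparison that used the residual spread of all 6 groups. The genes named by rule are a fixed set of 22, the 3 lowest p of each genotype comparison, the extremes over time and, of the further mitosis genes, Cdk1 and the 2 largest called changes per comparison and direction. Array values are printed for a selection of them. The other members named complete their groups and were added after their values were seen, as were the counts of estimates below 0. Alternatives were cyclic loess, median centring, dim clusters left out, all clusters, second clusters, compared groups alone, a trended robust prior, the replicate number as a block, other thresholds and each array left out.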

Additional observations from a re-analysis of the deposited data

How the results depend on the processing

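The count of genes higher at 20 hr was 45 under every alternative in SIRT6KD cells and 44 (cyclic loess) to 46 (no fold minimum) in WT cells. The count of 46 lower at 40 hr than at 20 hr changed once, to 45 in SIRT6KD cells without replicate 1 at 20 hr, when Smc4 lost its call. No alternative called a gene between genotypes. At 40 hr against 0 hr, dropping the fold minimum gave 36 lower and 1 higher in SIRT6KD cells and 29 lower and 2 higher in WT cells, where the fold minimum left 13 and 0 in SIRT6KD and 10 and 0 in WT cells. Median centring gave 1 higher in WT cells, as did leaving out WT replicate 3 at 0 or 40 hr (range 0 to 1 over left-out arrays). Cyclic loess gave WT medians of 1.074 for 20 hr and -0.421 for 40 hr against 0 hr, in place of 1.169 and -0.345. Leaving out arrays gave -1.535 to -1.462 for the WT median of 40 hr against 20 hr, and -0.143 (without SIRT6KD replicate 1 at 40 hr) to -0.045 for SIRT6KD against WT at 40 hr. Chosen after seeing the data, the counts below 0 were 11 at 0 hr with median centring and 9 (without WT replicate 3) to 27 with arrays left out, and with cyclic loess 11 at 20 hr and 24 at 40 hr. Aurkb in WT cells at 40 hr against 0 hr, near 0, turned to -0.05 with cyclic loess and ranged between -0.05 and 0.08 with arrays left out. Bub1 lost its call at 40 hr against 0 hr (-0.58) without SIRT6KD replicate 3 at 40 hr. The causes of these shifts were not tested. Same-numbered samples deviated together little (correlations of -0.21 to 0.18), so the numbers were not taken as pairs. Between genotypes the same number gave the best match for all 3 at 0 hr (0.05 to 0.18). It did so for 2 at 20 hr (0 to 0.16) and 0 at 40 hr (-0.06 to 0.02). With the replicate block the median at 20 hr against 0 hr in WT cells was again 1.169, and no call changed. The deposited arrays give no counts, and signals near the receptor level limit what can be seen for dim genes.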
